A study of Mus musculus with 8 samples.

Results

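Hedgehog signalling genes were followed across genotype and day in mouse embryonic stem cells (mESCs). The 9 genes were the ligands Shh, Ihh and Dhh, the receptor Ptch1, the signal transducer Smo, the transcription factors Gli1, Gli2 and Gli3, and the ligand-binding antagonist Hhip, chosen by name and all found among the 24421 genes of the deposited expression table. WT mESCs (line W9.5) and Hira-null mESCs (Clone104), both carrying HA-tagged histone H3.3, were sequenced at day 0, undifferentiated, and at day 15, differentiated as hanging drops, with 2 libraries from distinct experiments in each of 4 groups. Hira encodes a chaperone that deposits H3.3 outside DNA replication, the Hira-null cells are a single clone compared with a single WT line, and the day 15 samples, labelled as cardiomyocytes, were whole cultures. Expression is given as FPKM, the fragments of a gene per kilobase of its length scaled to the depth of the library.

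Hedgehog ligands are secreted proteins that act at a distance from the cells that make them. In cells without ligand, PTCH1 keeps SMO inactive and GLI3, and to a lesser degree GLI2, are processed into repressors. When a ligand binds PTCH1, SMO enters the primary cilium and GLI2 and GLI3 become activators, which switch on Gli1, Ptch1 and Hhip, so that these genes are both parts of the pathway and its common readouts. In the embryo SHH from the notochord and floor plate patterns the ventral neural tube and the somites, IHH acts in visceral endoderm, yolk sac and cartilage, and DHH in peripheral nerve and testis.

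Hira itself was measured at 27.3 and 28.5 FPKM in the WT libraries and at 12.4 and 11.4 FPKM in the Hira-null libraries of day 0, a log2 difference of -1.17 (SE 0.10, adjusted p = 8.48e-05). At day 15 it was at 15.8 and 15.5 FPKM in WT and at 16.7 and 19.8 FPKM in the libraries labelled Hira-null (0.20, SE 0.11, adjusted p = 0.167). The Hira level of the day 15 libraries therefore did not go with their labels, and every direction given for day 15 below rests on the label alone. Gm15797 shares exons with Hira on the same strand, and reads from the shared stretches cannot be told apart. The part of such reads in the Hira values was not tested. The pluripotency factor Pou5f1 was at 601 to 911 FPKM at day 0 and at 77.8 to 149.5 FPKM at day 15, and the cardiac myosin gene Myh6 was at 0.805 to 4.45 and at 26.6 to 42.6 FPKM. Depth was 6897009 to 11088835 fragments per library, as recovered from the steps of the FPKM values.

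A gene was tested if it reached 1 FPKM in at least 2 of the 8 libraries, on log2(FPKM + 1), and was called at an adjusted p of 0.05. Of the 9 genes, 8 passed this filter, Shh and Hhip only through the day 15 libraries and Ihh only through the WT libraries of day 15, so that these 3 had to differ between some groups. At day 0, 2 genes were higher in Hira-null than in WT cells (Gli1 and Gli2) and 1 was lower (Gli3), where 20.8% of all 14337 tested genes were higher and 19.4% lower. At day 15, 2 genes were higher in the libraries labelled Hira-null (Shh and Ptch1) and 3 were lower (Ihh, Gli2 and Gli3), against 18.6% and 18.8% of all genes. From day 0 to day 15, 7 rose and 1 fell in WT (36.1% and 33.4% of all genes), and 5 rose and 2 fell in the Hira-null cells (37.5% and 36.4%). The genotype difference itself changed between the days for 3 genes, upwards for Shh and downwards for Gli1 and Gli2 (17.5% and 17.7%), that of Shh not being called in limma-voom on recovered fragments (adjusted p = 0.212). Since the filter let Ihh, Shh and Hhip through only where they were high, their part in these counts is a description. The counts at day 0 and day 15 hung on single libraries: without the second WT library of day 0 the 3 genes became 1, Gli1, and without either WT library of day 15 the 5 became 3.

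**Figure D1:**
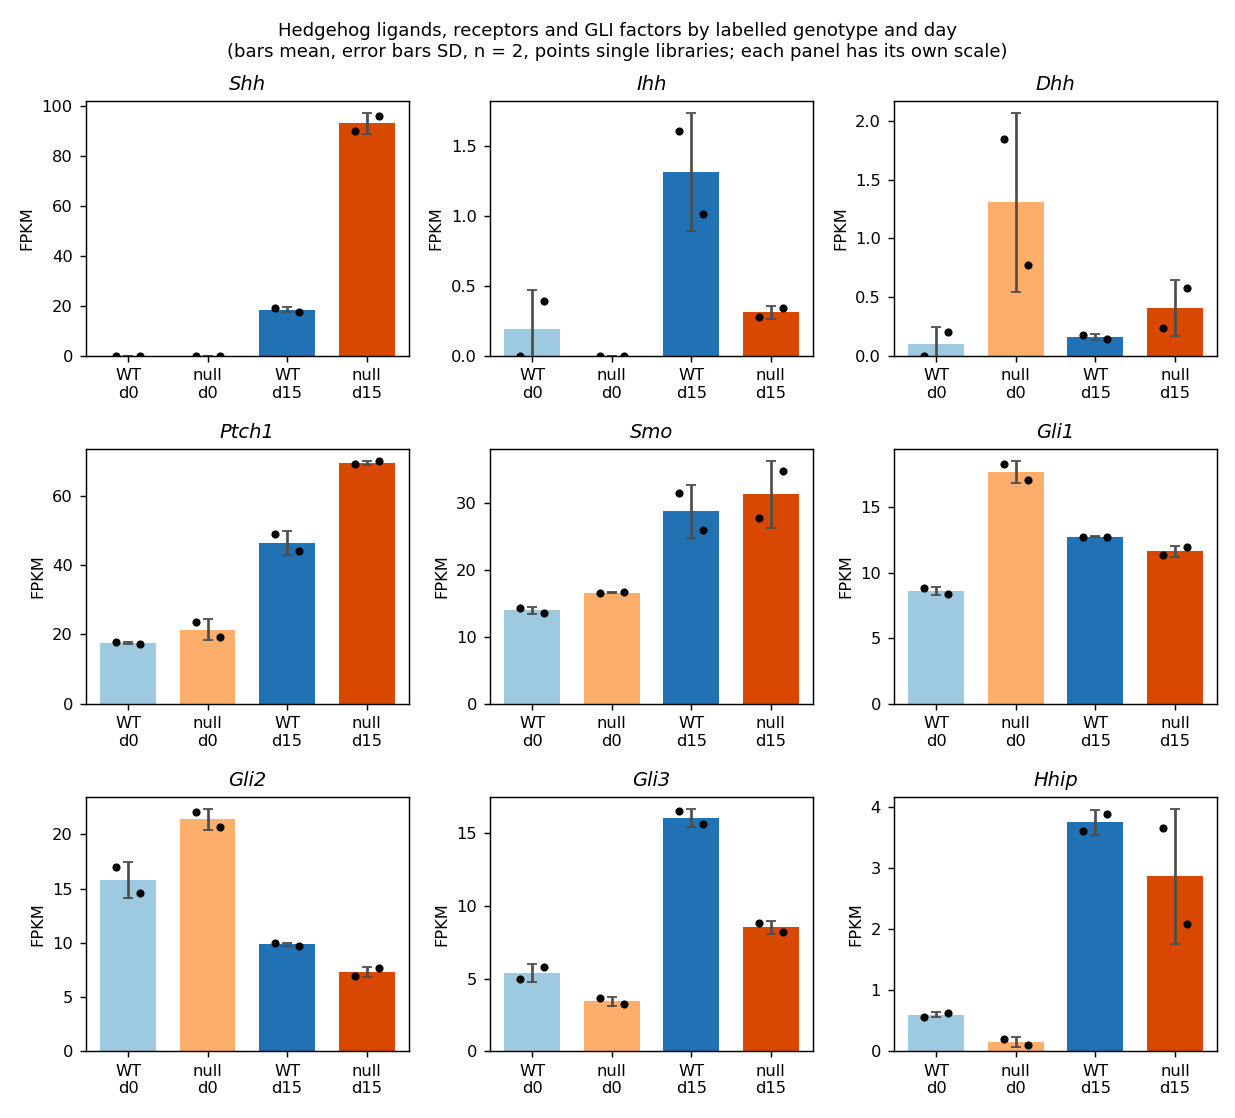
Expression of the 9 hedgehog genes in FPKM by labelled genotype and day; bars are means, error bars SD (n = 2, cut at 0), points single libraries, and each panel has its own scale. Shh was listed at 0 in every day 0 library and lay at 17.6 to 19.2 FPKM in WT and 89.8 to 95.8 FPKM in the labelled Hira-null libraries at day 15.

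Among the ligands, Shh (chromosome 5, 28783355 to 28793641 of the mm9 genome, minus strand) was not detected before differentiation, with no fragment in any of the 4 libraries of day 0. At day 15 it was at 19.2 and 17.6 FPKM in the WT libraries and at 89.8 and 95.8 FPKM in the libraries labelled Hira-null, from 482, 550, 2135 and 2432 fragments. The groups did not overlap, and the labelled Hira-null mean was 5.05 times the WT mean (log2 difference 2.28, SE 0.13, adjusted p = 1.51e-05). This SE also draws on the 4 libraries of day 0, which were all at 0 and add no spread. Against a floor of 3 fragments in a day 0 library, Shh was at least 120-fold higher at day 15 in WT and at least 567-fold higher in Hira-null cells. Among genes whose day 15 libraries of a genotype both reached 1 FPKM, 65.8% had a lower mean than Shh in WT and 95.7% in the labelled Hira-null cultures. In a bulk culture, fewer cells of a type and less RNA per cell cannot be told apart. Shh shares exons on the other strand with 9530036O11Rik, which was at 0 to 0.610 FPKM, and with Gm17493, for which no value was used.

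Markers of the cells that make SHH in the embryo were also higher at day 15, where 18.6% of all tested genes were higher. This list, like those below, was chosen with earlier results of these data known, so its count is a description. Of 10 floor plate and notochord markers 9 were tested, and all 9 were higher in the libraries labelled Hira-null, with a median log2 difference of 1.79 against 0.01 over all tested genes. Their summed level was 151 to 164 FPKM in the WT libraries and 650.2 to 683 FPKM in the labelled Hira-null libraries. Spon1, a floor plate adhesion protein, was at 11.4 and 11.2 against 49.4 and 50.3 FPKM (2.05, SE 0.13, adjusted p = 2.91e-05). Ntn1, the axon guidance cue netrin-1, was at 46.2 and 40.3 against 250.4 and 274 FPKM (2.57, SE 0.18, adjusted p = 4.18e-05), and shares exons with RP23-25D18.6 on the same strand. The notochord factor T was at 14.6 and 13.3 against 51.01 and 50.4 FPKM. Noto, which marks the node and early notochord, was at 0 in 7 of the 8 libraries and at 0.265 FPKM in the other. Without 1 library the count of 9 went no lower than 8, and the part of these cells in the level of Shh was not tested.

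Ihh (chromosome 1, 74991891 to 74998246, minus strand), the ligand of visceral endoderm and cartilage, was rare in all libraries. It was at 0 and 0.387 FPKM in WT and at 0 and 0 FPKM in Hira-null cells at day 0. By day 15 the level was 1.61 and 1.01 FPKM in WT and 0.276 and 0.344 FPKM in the libraries labelled Hira-null, from 37, 29, 6 and 8 fragments. The day 15 groups did not overlap, and the WT mean was 4.23 times the labelled Hira-null mean (log2 difference -0.81, SE 0.22, adjusted p = 0.0180). This call was lost without the first WT library of day 15 (-0.62, adjusted p = 0.147), without the first labelled Hira-null library (-0.77, adjusted p = 0.0532), and with a pseudocount of 0.1 (adjusted p = 0.0956). Ihh rose from day 0 to day 15 in WT (0.96, SE 0.21, adjusted p = 0.00320), and was not called in Hira-null cells (0.39, SE 0.21, adjusted p = 0.127), where it was called in limma-voom (3.72, adjusted p = 0.00950), with a pseudocount of 0.1 (2.03, adjusted p = 0.0343) and with only the 4 libraries compared (adjusted p = 0.0352). As Ihh passed the filter only through the WT libraries of day 15, its higher level there is a description. Visceral and yolk sac endoderm markers were lower for 13 of 15 genes in the labelled Hira-null libraries, with summed levels of 213 to 222 FPKM in WT and 36.3 to 37.6 FPKM, and 5 of 7 tested cartilage markers were higher, with 66.8 to 71.7 FPKM against 210.5 to 273 FPKM. Over all tested genes 18.8% were lower and 18.6% higher. In the cartilage sums Col2a1 alone was at 44.2 and 39.6 against 154 and 213 FPKM. Afp, Apob and Apoa4 reached 1 FPKM in both libraries of the WT group of day 15 only. Col10a1 did so in the labelled Hira-null group of day 15 only. The part of these 4 genes in the counts is a description. The part of the markers in the level of Ihh was not tested.

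Dhh (chromosome 15, 98723462 to 98728971, minus strand), the ligand of Schwann cells and Sertoli cells, did not pass the filter, since only the first Hira-null library of day 0 reached 1 FPKM. It was at 0 and 0.20 FPKM in WT and at 1.85 and 0.769 FPKM in Hira-null cells at day 0, from 0, 4, 30 and 16 fragments. The day 15 values were 0.179 and 0.144 FPKM in WT and 0.237 and 0.577 FPKM in the libraries labelled Hira-null, from 13 fragments at most. With no filter on low values the day 0 difference was 1.03 on the log2 scale (adjusted p = 0.0153), with both Hira-null libraries above both WT libraries. The Schwann cell marker S100b was at 0 in every library. Of the 6 tested Schwann cell and neural crest markers, 1 was higher and 2 were lower in Hira-null cells at day 0, where the 2 became 0 without the first WT or the second Hira-null library of that day, and 1 was higher and 3 were lower at day 15. Over all tested genes 20.8% were higher and 19.4% lower at day 0, and 18.6% and 18.8% at day 15. Sox10 reached 1 FPKM only in the WT libraries of day 15, so any part of it in these counts is a description. The part of these markers in the level of Dhh was not tested. At day 15 Shh made up 91.5% and 93.8% of the summed FPKM of the 3 ligands in WT, and 99.4% and 99.05% in the libraries labelled Hira-null.

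Ptch1 (chromosome 13, 63610261 to 63674474, minus strand), the ligand receptor and a readout of pathway activity, was at 17.8 and 17.2 FPKM in WT and at 23.5 and 19.3 FPKM in Hira-null cells at day 0. At day 15 it was at 49.0 and 44.1 FPKM in WT and at 69.3 and 70.1 FPKM in the libraries labelled Hira-null. The groups did not overlap at either day. The day 0 difference was not called (0.27, SE 0.10, adjusted p = 0.0644), but was without the second Hira-null library of day 0 (0.40, adjusted p = 0.0313) and in limma-voom (0.32, adjusted p = 0.0172). At day 15 the labelled Hira-null mean was 1.498 times the WT mean (0.58, SE 0.10, adjusted p = 0.00315). Without the second WT library of day 15 this call was lost (0.50, adjusted p = 0.0584). Ptch1 rose from day 0 to day 15 in WT (1.36, SE 0.10, adjusted p = 4.86e-06) and in Hira-null cells (1.67, SE 0.10, adjusted p = 1.02e-06), and the 2 increases were not shown to differ (0.31, SE 0.15, adjusted p = 0.135). For each FPKM of Shh, the day 15 libraries held 2.55 and 2.51 FPKM of Ptch1 in WT and 0.772 and 0.732 FPKM in the labelled Hira-null cultures, so that the receptor mRNA differed by less than the ligand mRNA.

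Smo (chromosome 6, 29685694 to 29711365, plus strand), the membrane protein that PTCH1 holds inactive, was at 14.3 and 13.6 FPKM in WT and at 16.5 and 16.7 FPKM in Hira-null cells at day 0. Its day 15 values were 31.5 and 26.0 FPKM in WT and 27.7 and 34.8 FPKM in the libraries labelled Hira-null, where the groups overlapped. No genotype difference was called at day 0 (0.24, SE 0.13, adjusted p = 0.168) or at day 15 (0.12, adjusted p = 0.513, 95% interval -0.18 to 0.41), and the sign of the day 15 value turned when the second library of either genotype was left out (-0.02 and -0.04). Smo rose with differentiation by 0.99 in WT and 0.87 in Hira-null cells on the log2 scale (SE 0.13 each, adjusted p = 1.24e-04 and 2.35e-04).

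The 3 GLI factors each took a different course. Gli1 (chromosome 10, 126766945 to 126778645, minus strand), an activator that is itself switched on by the pathway, was at 8.79 and 8.37 FPKM in WT and at 18.3 and 17.1 FPKM in Hira-null cells at day 0. The Hira-null mean was 2.06 times the WT mean there, with no overlap (0.96, SE 0.10, adjusted p = 1.57e-04). At day 15 Gli1 was at 12.8 and 12.7 FPKM in WT and at 11.3 and 11.9 FPKM in the libraries labelled Hira-null, and no difference was called (-0.12, SE 0.10, adjusted p = 0.381, 95% interval -0.35 to 0.11). Gli1 rose from day 0 to day 15 in WT (0.52, SE 0.10, adjusted p = 0.00135) and fell in Hira-null cells (-0.56, SE 0.10, adjusted p = 7.23e-04). The change of the genotype difference between the days was -1.08 (SE 0.14, adjusted p = 8.81e-04). Arhgap9, which shares exons with Gli1 on the other strand, was at 2.47 and 2.15 FPKM in WT and at 5.76 and 4.69 FPKM in Hira-null cells at day 0, and at 0.241 to 0.643 FPKM at day 15. The paper states that the libraries were made with a stranded kit, but the sources used here do not say whether the counting used the strand. The part of Arhgap9 in the Gli1 values was not tested.

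Gli2 (chromosome 1, 120730709 to 120950196, minus strand), the main activator at the start of the response, was at 17.0 and 14.6 FPKM in WT and at 22.1 and 20.7 FPKM in Hira-null cells at day 0. The day 15 level was 9.97 and 9.73 FPKM in WT and 6.98 and 7.66 FPKM in the libraries labelled Hira-null. The groups did not overlap at either day, and the Hira-null cells had the higher values at day 0 (0.42, SE 0.11, adjusted p = 0.0156) and the labelled Hira-null cultures the lower values at day 15 (-0.38, SE 0.11, adjusted p = 0.0268). Both calls were near the threshold. That of day 0 was lost without the second WT library (adjusted p = 0.0807) and without the first or second Hira-null library (0.106 and 0.0550), and with only the 4 libraries compared (0.0548). That of day 15 was lost without the first or second WT library (0.160 and 0.134), without the first labelled Hira-null library (0.0883) with only the 4 libraries compared (0.0512) and with a replicate block (0.0710). Gli2 fell with differentiation in WT (-0.63, SE 0.11, adjusted p = 8.94e-04) and further in Hira-null cells (-1.43, SE 0.11, adjusted p = 4.02e-06), and the difference between these changes was -0.80 (SE 0.16, adjusted p = 0.00559). Of the 8 tested genes, Gli2 alone fell from day 0 to day 15 in both genotypes.

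Gli3 (chromosome 13, 15555068 to 15821859, plus strand), the main source of GLI repressor, was at 4.97 and 5.83 FPKM in WT and at 3.68 and 3.23 FPKM in Hira-null cells at day 0. At day 15 it was at 16.5 and 15.6 FPKM in WT and at 8.84 and 8.23 FPKM in the libraries labelled Hira-null. The Hira-null libraries were the lower ones at both days, at day 0 by 0.52 on the log2 scale (SE 0.13, adjusted p = 0.0107) and at day 15 by 0.84 (SE 0.13, adjusted p = 0.00142), where the WT mean was 1.88 times the labelled Hira-null mean. The day 0 call was lost without the second WT library (-0.42, adjusted p = 0.0507) or the second Hira-null library (-0.45, adjusted p = 0.0746), and with only the 4 libraries compared (adjusted p = 0.0768). Gli3 rose with differentiation in WT (1.42, SE 0.13, adjusted p = 1.40e-05) and in Hira-null cells (1.10, SE 0.13, adjusted p = 5.41e-05), and the genotype differences of the 2 days were not shown to differ (-0.32, SE 0.18, adjusted p = 0.205).

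**Figure D2:**
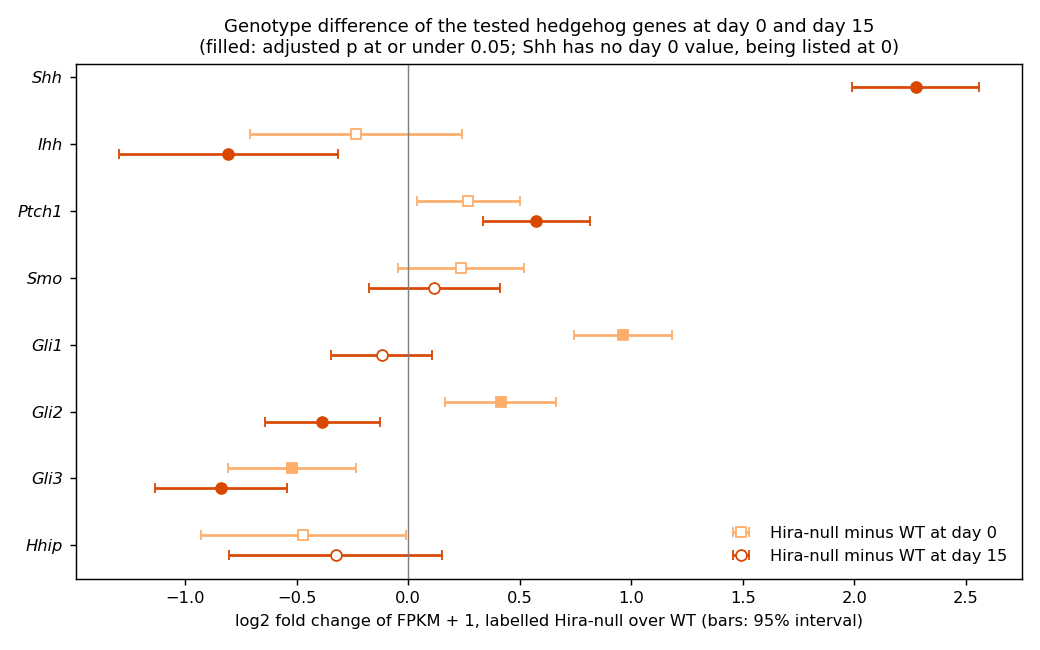
Log2 fold change of FPKM + 1 between labelled Hira-null and WT libraries for the 8 tested hedgehog genes at day 0 (squares) and day 15 (circles), with 95% intervals; filled symbols passed an adjusted p of 0.05. Gli2 lay above 0 at day 0 (0.42) and below it at day 15 (-0.38), while Gli3 lay below 0 at both days (-0.52 and -0.84).

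Set against each other, the GLI factors shifted from Gli2 towards Gli3. In WT cells Gli2 held 55.3% and 50.7% of the summed GLI FPKM at day 0 and 25.4% and 25.6% at day 15, while Gli3 went from 16.1% and 20.2% to 42.1% and 41.0%. In the Hira-null cells Gli3 held 8.36% and 7.88% at day 0 and 32.6% and 29.6% at day 15, below every WT library of the same day. Gli1 held 28.6% and 29.1% in WT and 41.5% and 41.7% in Hira-null cells at day 0. By day 15 this share was 32.5% and 33.4% in WT and 41.8% and 42.9% in the labelled Hira-null libraries. The Gli1 share was thus higher in the Hira-null than in the WT libraries of each day, at day 15 with a mean of 11.6 FPKM for Gli1 itself against 12.7 FPKM in WT. These shares describe mRNA, and the processing of GLI proteins was not measured.

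**Figure D3:**
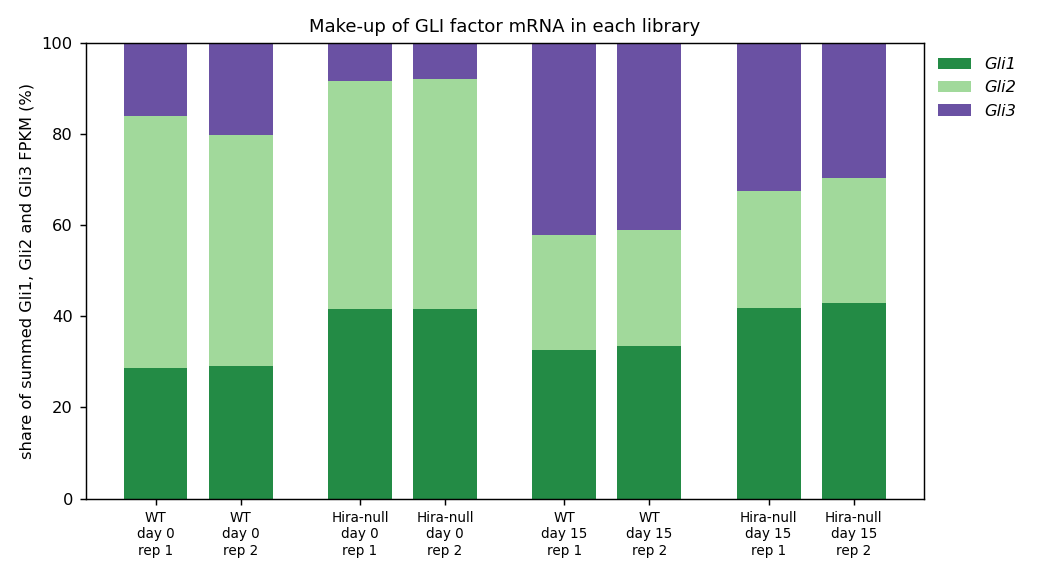
Share of each GLI factor, in percent of the summed FPKM of Gli1, Gli2 and Gli3, in each of the 8 libraries. The Gli3 share was 7.88% to 20.2% at day 0 and 29.6% to 42.1% at day 15, and was lower in the Hira-null than in the WT libraries of the same day.

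Hhip (chromosome 8, 82490014 to 82581905, minus strand), which binds and sequesters hedgehog ligands, was at 0.569 and 0.626 FPKM in WT and at 0.208 and 0.1003 FPKM in Hira-null cells at day 0. Differentiated cultures held 3.60 and 3.89 FPKM in WT and 3.65 and 2.08 FPKM in the libraries labelled Hira-null. The day 0 groups did not overlap but the difference was not called (-0.47, SE 0.20, adjusted p = 0.0984), whereas a pseudocount of 0.1 gave -1.49 (adjusted p = 0.0161) and limma-voom on recovered fragments -1.99 (adjusted p = 0.0104), and leaving out the first or second labelled Hira-null library of day 15 gave an adjusted p of 0.0464 or 0.0463. With only the 4 libraries compared the day 0 difference was called as well (adjusted p = 0.0242). The day 15 groups overlapped and the difference was not called (-0.33, SE 0.21, adjusted p = 0.255). It was called in limma-voom on recovered fragments (-0.47, adjusted p = 0.0425), and was -0.62 without the first labelled Hira-null library. Hhip rose with differentiation in WT (1.57, SE 0.21, adjusted p = 1.41e-04) and in Hira-null cells (1.71, SE 0.21, adjusted p = 6.56e-05). As Hhip passed the filter only through the day 15 libraries, this rise is a description. Of the 3 readouts of pathway activity, then, only Ptch1 was called higher in the labelled Hira-null libraries at day 15, Gli1 and Hhip were not, and the ratio of Ptch1 to Gli1 was 3.84 and 3.47 in WT and 6.12 and 5.87 in the labelled Hira-null libraries.

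The stretches just before the gene starts are shown because Ptch1 and Gli2 differed between genotypes and GLI proteins act through DNA. RefSeq promoter entries (GRCm38.p6 build) were at hand for 7 of the 9 genes, the others being Shh and Gli1. The core of the GLI binding motif, ACCACCC or its reverse complement GGGTGGT, was found in 1 of the 7 windows of 250 bases before the start, that of Gli2, and in 3.92% of all 32851 promoters. The longer GACCACCCA (reverse TGGGTGGTC) was in none of the 7 and in 0.225% of promoters. The motif stood 205 bases before the Gli2 start and is in capitals in the first of these sequences, each read 5′ to 3′ on the minus strand.
Gli2, chr1:119053620-119053869: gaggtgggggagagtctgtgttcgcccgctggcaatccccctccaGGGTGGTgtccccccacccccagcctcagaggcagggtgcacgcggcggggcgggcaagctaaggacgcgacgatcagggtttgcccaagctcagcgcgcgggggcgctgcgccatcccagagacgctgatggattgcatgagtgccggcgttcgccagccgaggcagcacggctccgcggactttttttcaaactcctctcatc
Ptch1, chr13:63565736-63565985: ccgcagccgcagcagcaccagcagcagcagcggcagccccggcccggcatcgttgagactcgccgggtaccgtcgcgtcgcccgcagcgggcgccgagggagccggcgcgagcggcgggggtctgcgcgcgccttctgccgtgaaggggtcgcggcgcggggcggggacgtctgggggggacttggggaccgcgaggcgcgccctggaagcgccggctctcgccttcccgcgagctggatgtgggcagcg
A match to these letters is a description of the sequence and not a binding site, and a window without them says nothing of GLI binding to the gene. The Ptch1 window was 78.4% G and C and the Gli2 window 67.2%.

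Genes that make the ligand ready for release changed in both directions. HHAT adds palmitate to hedgehog ligands, DISP1 releases them from the membrane, and SCUBE proteins carry them outside the cell. Of 7 genes 6 were tested, and at day 15 the labelled Hira-null libraries were higher for Disp2 (0.624 and 0.592 against 3.34 and 3.44 FPKM, log2 difference 1.45) and Scube3 (10.7 and 9.67 against 24.7 and 29.4 FPKM, 1.32), and lower for Hhat (-1.11) and Scube2 (-0.76). Over all tested genes 18.6% were higher and 18.8% lower at day 15, and 20.8% and 19.4% at day 0. Scube3 was also higher at day 0 (1.48), where Disp1 was lower (-0.52). The 2 lower genes of day 15 became 1 without the first or second WT library of day 15, without the second labelled Hira-null library, or with a replicate block, and Disp1 was not called without the second Hira-null library of day 0. Scube2 was below 1.4 FPKM in every library, and Disp2 and Hhat passed the filter only through the group where each was high.

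Among co-receptors and ligand-binding proteins, the labelled Hira-null libraries of day 15 were higher for Lrp2 and lower for Gas1 and Boc. Gas1, a surface co-receptor that promotes signalling, was at 27.6 and 27.4 FPKM in WT and at 6.52 and 10.97 FPKM in the labelled Hira-null libraries (-1.59, SE 0.21, adjusted p = 6.25e-04). Boc, another co-receptor, was at 15.9 and 14.1 against 7.65 and 7.26 FPKM (-0.92, SE 0.16, adjusted p = 0.00224), and the third co-receptor, Cdon, was not called (0.23, adjusted p = 0.129). Lrp2, the endocytic receptor megalin, was at 19.2 and 17.8 FPKM in WT and at 4.0 and 3.97 FPKM in Hira-null cells at day 0 (-1.97, SE 0.11, adjusted p = 1.13e-05). Lrp2 was higher at day 15 (0.34, adjusted p = 0.0396). This call was lost on leaving out either WT library of either day or either labelled Hira-null library of day 15, and with a replicate block. Boc (0.63) and the proteoglycan Gpc3 (0.63) were higher in Hira-null cells at day 0, a count of 2 that became 1 without the first Hira-null library. The share over all tested genes was 20.8%.

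Of 26 genes between SMO and GLI, all tested, 6 were higher and 4 lower in the labelled Hira-null libraries at day 15, and 6 were higher and 3 lower in Hira-null cells at day 0, counts near what the shares of all tested genes would give (18.6% and 18.8%, and 20.8% and 19.4%). Zic1, a zinc finger factor related to the GLI family, was at 4.25 and 5.50 against 31.8 and 37.1 FPKM at day 15 (2.60, SE 0.16, adjusted p = 2.82e-05), and shares exons with Zic4 on the other strand. Gpr161, a ciliary receptor that restrains the pathway, was at 4.32 and 4.39 against 8.38 and 10.9 FPKM (0.98, adjusted p = 0.00219), followed by Zic2 (0.65) and the ubiquitin ligase part Btrc (0.56). Lower were Arrb2 (-1.03), the ciliary SMO partner Evc2 (-0.85), and the protein kinase A subunits Prkaca (-0.32) and Prkar1a (-0.22). Changes at day 0 included Ulk3 (1.20), a kinase of GLI proteins, Zic2 (0.77), Prkar1a (-0.57) and Spop (-0.40), the adaptor that targets GLI2 and GLI3 for degradation. Sufu, the main brake on GLI proteins, was not called at either day (-0.16 and 0.29, adjusted p = 0.359 and 0.12). The day 15 counts became 2 and 1 without the first WT library of that day and 3 and 1 without the second, and those of day 0 became 3 and 1 without the first and 2 and 1 without the second Hira-null library. A replicate block made the 4 lower genes 2.

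Of 12 genes of the primary cilium, the organelle in which SMO acts, 2 were lower in the labelled Hira-null libraries at day 15, Ift172 (-0.59, adjusted p = 0.00466) and Kif3a (-0.40, adjusted p = 0.0284), a count near what the 18.8% of all tested genes would give. The count of 2 became 0 without either WT library of day 15, and 1 without the second labelled Hira-null library or with a replicate block. At day 0 the transport genes Ift140 (8.71 and 7.71 against 18.4 and 17.9 FPKM, 1.06) and Ift122 (1.03) were higher in Hira-null cells and Kif3a lower (-0.50), the last not so without the first Hira-null library. Kif3a shares exons with Il4 on the other strand.

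Targets that SHH switches on in the ventral neural tube were higher at day 15 in the libraries labelled Hira-null for 5 of 6 genes, a count that stayed at 5 whichever library was left out, with a median log2 difference of 1.29 against 0.01 over all tested genes. Nkx2-2, of the progenitors next to the floor plate, was at 2.51 and 2.51 FPKM in WT and at 9.72 and 11.7 FPKM in the labelled Hira-null libraries (1.73, SE 0.17, adjusted p = 1.56e-04), and shares exons with Nkx2-2as on the other strand. Olig2, of motor neuron progenitors, was at 1.26 and 0.350 against 3.82 and 5.26 FPKM (1.65), and Nkx6-1 at 6.03 and 4.04 against 14.9 and 20.4 FPKM (1.63). Olig2 reached 1 FPKM in both libraries of the labelled Hira-null group of day 15 only, so its part in the count is a description. Foxa2, a floor plate and endoderm factor, was at 12.4 and 11.4 against 23.0 and 25.0 FPKM (0.96), and went the other way at day 0, at 1.83 and 1.90 FPKM in WT and 0.0614 and 0.0480 FPKM in Hira-null cells (-1.44, SE 0.13, adjusted p = 8.55e-05). Of 6 dorsal and intermediate neural tube factors that SHH represses, 5 were tested, and 3 were higher as well, Dbx1 (2.35 and 2.22 against 8.70 and 11.9 FPKM, 1.77), Msx1 (6.82 and 7.56 against 18.0 and 21.1 FPKM, 1.32) and Irx3 (0.51), which mark intermediate and dorsal progenitors. Neural progenitor markers were higher for 7 of 10 genes, with summed levels of 828 to 885 FPKM in WT and 1521 to 1676 FPKM in the labelled Hira-null libraries. In these sums Vim alone was at 678 and 622 against 1014 and 1192 FPKM. Over all tested genes 18.6% were higher at day 15. The part of the progenitor markers in the values of the neural tube genes was not tested.

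**Figure D4:**
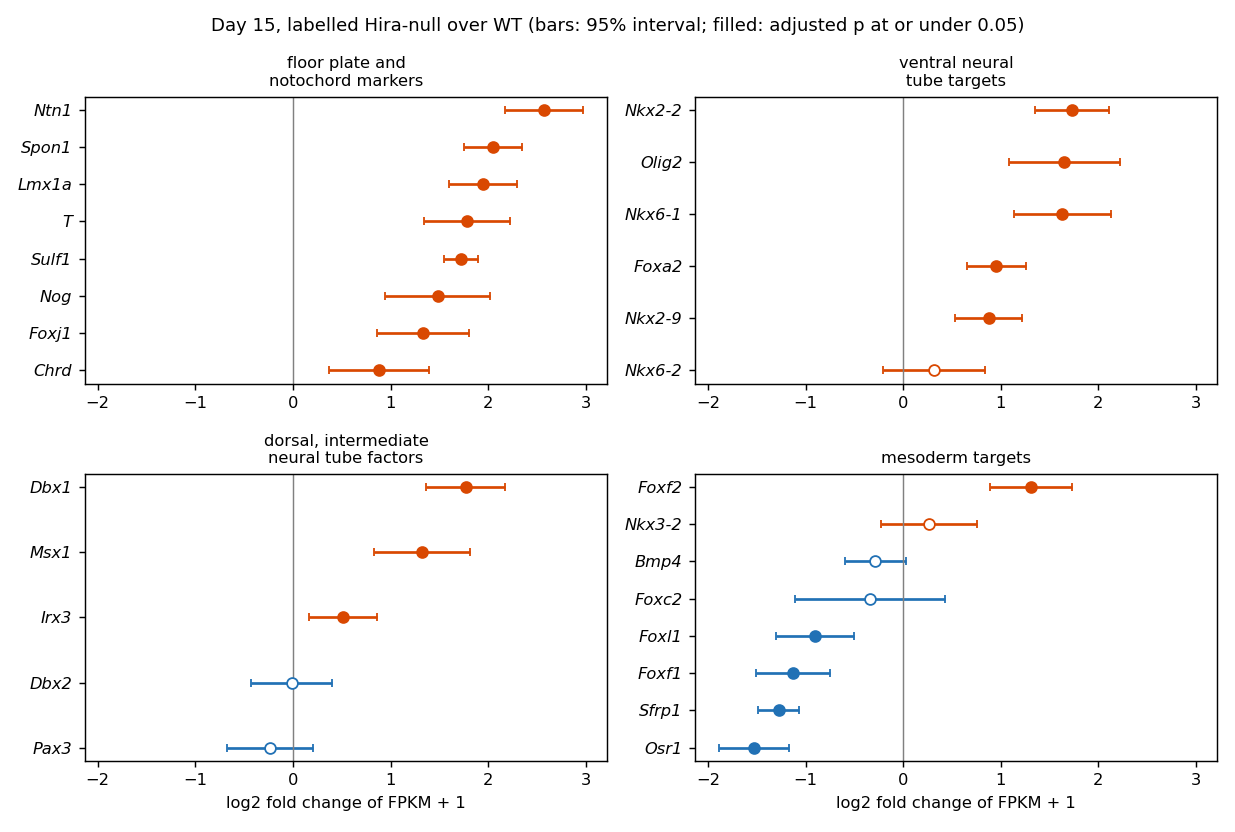
Log2 fold change of FPKM + 1 at day 15, labelled Hira-null over WT, with 95% intervals, for tested genes of 4 lists; filled points passed an adjusted p of 0.05. The 8 floor plate and notochord markers shown and 5 of 6 ventral neural tube targets lay above 0 and passed, and 4 of 8 mesoderm targets lay below 0 and passed.

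Hedgehog targets of mesoderm did not follow those of the neural tube. Of 10 genes 8 were tested. At day 15 in the labelled Hira-null libraries 1 was higher and 4 were lower, against 18.6% and 18.8% of all tested genes. The median of the 8 was -0.62. The lower genes were Osr1 (10.5 and 8.91 against 2.62 and 2.77 FPKM, -1.53), Sfrp1 (60.1 and 57.5 against 25.5 and 22.0 FPKM, -1.27), Foxf1 (7.83 and 8.66 against 3.24 and 3.21 FPKM, -1.13) and Foxl1 (-0.91), factors of lateral plate and visceral mesenchyme apart from Sfrp1, a secreted WNT antagonist. The count stayed at 4 whichever library was left out, but Foxl1 had passed the filter only through the WT libraries of day 15. Foxf2, a relative of Foxf1, was higher (5.92 and 5.23 against 14.5 and 16.1 FPKM, 1.31), a call not made with a pseudocount of 0.1. At day 0 Sfrp1 was higher (0.73) and Bmp4 lower (-0.40) in Hira-null cells, the latter (adjusted p = 0.0380) a call lost on leaving out any library but the first WT library of day 0. Cardiomyocyte markers at day 15 were higher for 1 and lower for 4 of 10 genes (2 lower without either WT library of that day), with summed levels of 194 to 199 FPKM in WT and 125 to 135 FPKM in the labelled Hira-null libraries. Endothelial markers were lower for 7 of 10 (4 without either), at 56.6 to 60.4 against 22.6 to 25.7 FPKM. For both lists the shares over all tested genes were 18.6% higher and 18.8% lower. In the cardiomyocyte sums Myl7 alone was at 68.9 and 64.9 against 12.4 and 11.9 FPKM, while Tnnt2 was at 38.9 and 41.0 against 57.8 and 59.7 FPKM. Nppa reached 1 FPKM in both libraries of the labelled Hira-null group of day 15 only, and Tie1 of the WT group only. Any part of these genes in the counts is a description. The part of both lists in the mesoderm values was not tested.

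Of 5 growth genes under hedgehog control, all tested, 4 were lower in Hira-null cells at day 0, against 19.4% of all tested genes. The median log2 difference of the 5 was -0.85. The cyclin Ccnd2 was at 16.6 and 13.2 FPKM in WT and at 1.89 and 1.62 FPKM in Hira-null cells (-2.53, SE 0.11, adjusted p = 3.70e-06), and Mycn at 95.6 and 97.7 against 39.7 and 37.9 FPKM (-1.29, SE 0.11, adjusted p = 7.99e-05). They were lower where Gli1 and Gli2 were higher. At day 15 Cdk6 was higher (0.54, adjusted p = 0.0143), and was not called without the first WT or the second labelled Hira-null library of that day. Pluripotency markers at day 0 were higher for 6 and lower for 1 of 8 genes in Hira-null cells, with summed levels of 3155 to 3354 FPKM in WT and 4876 to 4891 FPKM in Hira-null libraries, and the 6 became 3 without either Hira-null library. The shares over all tested genes were 20.8% higher and 19.4% lower. In these sums Dppa5a alone was at 1131 and 933 FPKM in WT and at 2352 and 2358 FPKM in Hira-null cells. Zfp42 went the other way, at 471 and 444 against 170 and 188 FPKM. The part of the pluripotency differences in the day 0 values of the hedgehog genes was not tested.

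The genes whose log2(FPKM + 1) followed each hedgehog gene most closely over the 8 libraries are given as a description, since the same 4 groups shape every value. For Shh they were Spon1 (r = 0.9998), Thsd7a and Cux1. For Ihh they were Atg4c (r = 0.983), Fut10 and Figf. For Ptch1 they were Apc2 (r = 0.998), Tmem127 and Gba2, and for Smo Taok2 (r = 0.995), Foxj2 and Mtch1. Gli1 was followed by Inppl1 (r = 0.980), Kank4 and Stk11ip, Gli2 by Adamts14 (r = 0.998), Patl2 and Rps9, and Gli3 by Mest (r = 0.997), Bgn and Frzb. Hhip was followed by Zfp952 (r = 0.996), Magi3 and Glrb. Inppl1, for example, had the day 0 difference of Gli1, with means of 34.0 ± 1.09 FPKM in WT and 68.0 ± 2.55 FPKM in Hira-null cells, against 45.7 ± 2.46 and 45.8 ± 3.84 FPKM at day 15 (SD, n = 2). Mest was, like Gli3, lower in Hira-null libraries at both days, at 60.8 ± 1.71 against 29.7 ± 1.99 FPKM and 317.6 ± 0.173 against 118.5 ± 13.5 FPKM (SD, n = 2).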

How the data were processed

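RNA was sequenced from 8 libraries of WT and Hira-null mESCs at day 0 and day 15. The authors deposited FPKM values per gene, mapped to mm9 with Bowtie 0.12.2 per the submitters' processing notes, which also name DESeq2 1.6.3. A pair of further deposited tables holds only the authors' comparisons (mean normalized count, log2 fold change, its error, statistic, p and adjusted p) and was not used. FPKM values were tested with limma 3.58.1 (R 4.3.3) on log2(FPKM + 1), with a filter of 1 FPKM in at least 2 of 8 libraries, 4 group means, weights by day (1.03 and 0.968), a variance trend and Benjamini-Hochberg adjustment over 14337 genes. A fold change on this scale understates that of low genes. The error of each test pooled the spread between the 2 libraries of each of the 4 groups, with 4 residual degrees of freedom. It was moderated by empirical Bayes towards the trend over all genes (median prior degrees of freedom 4.70). The p-values thus do not measure the spread of the compared groups alone.

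Fragments recovered from the steps of the values were whole within 0.1 for 100.0% of positive values, and floors of 3 fragments cover counting error only. The step of each gene was chosen to make its values whole, so the 100.0% is no independent check. Of 24421 genes 5287 were at 0 in every library, and 27 symbols had turned into dates. The genotype and day comparisons share libraries. Same-numbered libraries were checked for pairing and correlated at -0.0967 to 0.0455, so that the numbers were not taken to pair them. The alternatives were a pseudocount of 0.1, no filter, a replicate block, only the libraries compared, median-ratio scaling, limma-voom on recovered fragments, and each library left out. The test was checked on simulated data. The members and gene lists were chosen with earlier results of these data known. Of each pathway and target list, up to 4 genes higher and 4 lower at day 15 and 2 each at day 0 were named by largest change past the threshold; marker genes and genes not past it were named after their values were seen, and the list counts with libraries left out were added after seeing the data. Promoters are RefSeq entries on GRCm38.p6, whereas gene positions are those of mm9. A few genes of the lists are not reported here.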

Additional observations from a re-analysis of the deposited data

Results flagged for a closer look

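The genotype difference of 3 hedgehog genes itself differed between day 0 and day 15 in limma's test of the interaction. For Shh the log2 difference at day 15 minus that at day 0 was 2.28 (SE 0.18, adjusted p = 1.07e-04), which equals the day 15 difference because Shh was listed at 0 in all 4 libraries of day 0, and it was not called in limma-voom on recovered fragments (2.26, adjusted p = 0.212). For Gli1 it was -1.08 (SE 0.14, adjusted p = 8.81e-04), with Hira-null cells higher at day 0 and no difference called at day 15. For Gli2 it was -0.80 (SE 0.16, adjusted p = 0.00559), from higher in Hira-null cells at day 0 to lower in the libraries labelled Hira-null at day 15. All 3 directions use the labels of the day 15 libraries.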

How the results depend on the processing

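Of the values recomputed under the alternatives, 542 kept their direction and side of the threshold, 12 passed it newly, 17 no longer passed it and 6 turned in sign. The 3 genes called at day 0 ranged from 1 to 4 with 1 library left out and were 5 in limma-voom on recovered fragments. The 5 called at day 15 ranged from 3 to 5 with 1 library left out. At day 15 limma-voom also called Hhip (-0.47, adjusted p = 0.0425). Ihh was not called there with a pseudocount of 0.1 (adjusted p = 0.0956), nor Gli2 with only the 4 libraries compared (adjusted p = 0.0512). The signs that turned were those of values not called. With 1 library left out, the day 15 difference of Smo ranged from -0.0425 (without the second labelled Hira-null library of day 15) to 0.28, the change of its genotype difference between the days from -0.28 to 0.0383 (without the first), and that of Hhip from -0.15 (without the first) to 0.44. The change for Ihh was 0.0928 in limma-voom. The change for Shh was 2.26 in limma-voom and not called there (adjusted p = 0.212). With a replicate block within day, Gli2 at day 15 kept its value of -0.38 and was not called (adjusted p = 0.0710); the numbers do not pair the libraries. In the WT day comparison the median of all genes was 0.168 on the log2 scale in limma-voom and 0.0341 as reported. The cause of these changes was not tested. With 2 libraries a group, low genes such as Ihh and Dhh, at 37 fragments or fewer, were the least precise.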
